A study of Mus musculus with 14 samples.

Results

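The interleukin-6 family genes described here are the cytokine genes Il6, Il11 and Lif, the receptor genes Il6ra, Il6st and Osmr, and the feedback inhibitor gene Socs3. They were chosen by gene symbol in the platform annotation. Of these 7 genes 6 had a probe set, with 8 probe sets in all among 12422 on the array, and Lif was not analysed here. All 8 passed the filter on low signals. The arrays were Affymetrix MG_U74Av2 arrays, 1 for each of 14 RNA samples from CD-1 mice. Myofibroblast cultures (3 arrays) were adult corneal stromal cells grown in DMEM with 10% fetal bovine serum and 10 ng/ml TGF-beta1. Fibroblast cultures (3 arrays) were the same kind of cells in 10% fetal bovine serum alone, and keratocyte cultures (3 arrays) were grown in 1% platelet-poor horse serum. Adult stroma (3 arrays) was dissected from mice aged 7 to 8 weeks, as were the cells for culture, and P10 stroma (2 arrays) came from mice at postnatal day 10. The labels do not say how many animals or cultures stand behind a replicate, so the p-values measure the spread between these arrays, which may be technical. Myofibroblast and keratocyte cultures differ both in serum and in TGF-beta1, and these cannot be told apart in that comparison.

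Cytokines of this family bind a receptor of their own and then share gp130, the signalling subunit that Il6st encodes. Joining of gp130 starts Janus kinases, which phosphorylate the transcription factor STAT3 and switch on target genes that include acute phase proteins and Socs3, whose product blocks the receptor in turn. The corneal stroma is the collagen-rich layer kept by keratocytes, and in culture these cells take on fibroblast or, with TGF-beta, contractile myofibroblast features. Interleukin-6 is known as a cytokine of injured and inflamed cornea, and interleukin-11 as a cytokine that TGF-beta induces in fibroblasts.

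Promoter sequences are shown for Il6, Il11 and Socs3, members higher in culture whose promoters held a searched motif before the start base, with the motif in capitals. They run 5′ to 3′ from 250 bases before the annotated start base, which is position 0, and come from RefSeq (GRCm38.p6). The Il6 promoter lies at chr5:30012864-30013163 on the plus strand, that of Il11 at chr7:4778092-4778391 on the minus strand, and that of Socs3 at chr11:117969317-117969616 on the minus strand.
Il6: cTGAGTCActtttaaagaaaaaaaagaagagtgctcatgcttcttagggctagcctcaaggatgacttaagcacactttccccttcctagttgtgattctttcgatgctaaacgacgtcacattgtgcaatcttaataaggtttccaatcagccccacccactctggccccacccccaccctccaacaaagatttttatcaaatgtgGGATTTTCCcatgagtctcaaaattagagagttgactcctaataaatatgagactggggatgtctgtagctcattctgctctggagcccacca
Il11: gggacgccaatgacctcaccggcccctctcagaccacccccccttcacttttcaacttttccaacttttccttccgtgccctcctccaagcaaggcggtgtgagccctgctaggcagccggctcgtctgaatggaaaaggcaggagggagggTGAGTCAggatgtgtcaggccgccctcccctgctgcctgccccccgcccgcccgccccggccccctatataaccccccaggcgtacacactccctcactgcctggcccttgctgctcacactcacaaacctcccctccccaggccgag
Socs3: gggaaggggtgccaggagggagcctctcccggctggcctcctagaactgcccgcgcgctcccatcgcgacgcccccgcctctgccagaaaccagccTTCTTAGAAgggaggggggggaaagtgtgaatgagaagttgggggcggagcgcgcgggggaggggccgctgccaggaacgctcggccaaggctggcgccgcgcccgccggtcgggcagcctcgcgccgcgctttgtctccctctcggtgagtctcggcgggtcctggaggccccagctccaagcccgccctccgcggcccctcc
The capitals in Il6 mark TGAGTCA, a match to the AP-1 motif TGANTCA at -249 to -243, and GGATTTTCC, a match to the NF-kB motif GGANTTTCC at -43 to -35. In Il11 they mark an AP-1 match at -98 to -92, in the window of its second annotated start, and the window of its first start held no match. In Socs3 they mark TTCTTAGAA, a match to the STAT motif TTCNNNGAA at -154 to -146. The Socs3 window lies inside the annotated span of its gene (chr11:117966079-117970336). So do the windows of Osmr and of the second Il11 start in theirs. Both strands were searched, and no match overlapped another. Osmr held an AP-1 match at 3 to 9 and Lif at -228 to -222, while Il6ra and Il6st held none of the 3 motifs. Of 32851 promoters of this length 8.30% held the STAT motif, 7.81% the AP-1 motif and 1.25% the NF-kB motif. A match describes letters only and is no measure of binding.

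Signals are linear probe set signals. Their background level, 137.7, is the 95th percentile of 19 control probe sets whose transcripts were taken as not added to the samples, which the labels do not state. Control values had a median of 42.2 and reached 256.8. A signal at or below the background level is within background. Array medians lay between 102 and 135.6. The 3'/5' ratio of Gapdh, a measure of RNA integrity, was 0.756 to 0.859 in the cultures and 0.896 to 1.04 in stroma, except for adult replicate 1, which stood apart at 2.12 (with an Actb ratio of 4.05, against 1.44 to 1.77 on the other stroma arrays). The ratio thus moved with the comparison of culture and tissue, and its part in the results was not tested. Of the calls on members, those of Il6 in fibroblast cultures against adult stroma and of Il11 in adult against P10 stroma were lost without adult replicate 1 (limma adjusted p = 0.114 and 0.0754). Acta2, the smooth muscle actin gene that marks myofibroblasts, had a mean signal of 2983 ± 69.1 in myofibroblast cultures, 2046 ± 1236 in fibroblast cultures, 3193 ± 142 in keratocyte cultures and 56.0 ± 14.3 in adult stroma (SD, n = 3 each). Keratocyte cultures were thus not low in this marker. Kera, the keratocyte proteoglycan keratocan, had a mean of 8.96 ± 4.46, 44.7 ± 41.5 and 165 ± 150 in these cultures, in the same order, against 303 ± 112 in adult stroma. The fall from adult stroma passed limma's test in myofibroblast and fibroblast cultures (adjusted p = 0.0012 and 0.0106), but not in keratocyte cultures (0.182). Of 9 keratocyte markers 2 were higher and 4 lower in myofibroblast cultures than in adult stroma. The counts were 2 and 3 in fibroblast cultures, and 4 and 1 in keratocyte cultures. Of the 4 higher there, Cd34 stayed within background. Of all probe sets 17.5% and 15.5%, 18.4% and 12.3%, and 21.8% and 9.25% passed.

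In outline, Il6st and Socs3 were higher in each kind of culture than in adult stroma, where both were within background. Il11 was above background in myofibroblast cultures alone, and Il6 only in keratocyte cultures and only narrowly. Osmr was above background on every array, and Il6ra in no group mean. Among the cultures, Il6st was lowest in myofibroblast cultures. The plot of signals by array shows each value.

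**Figure D1:**
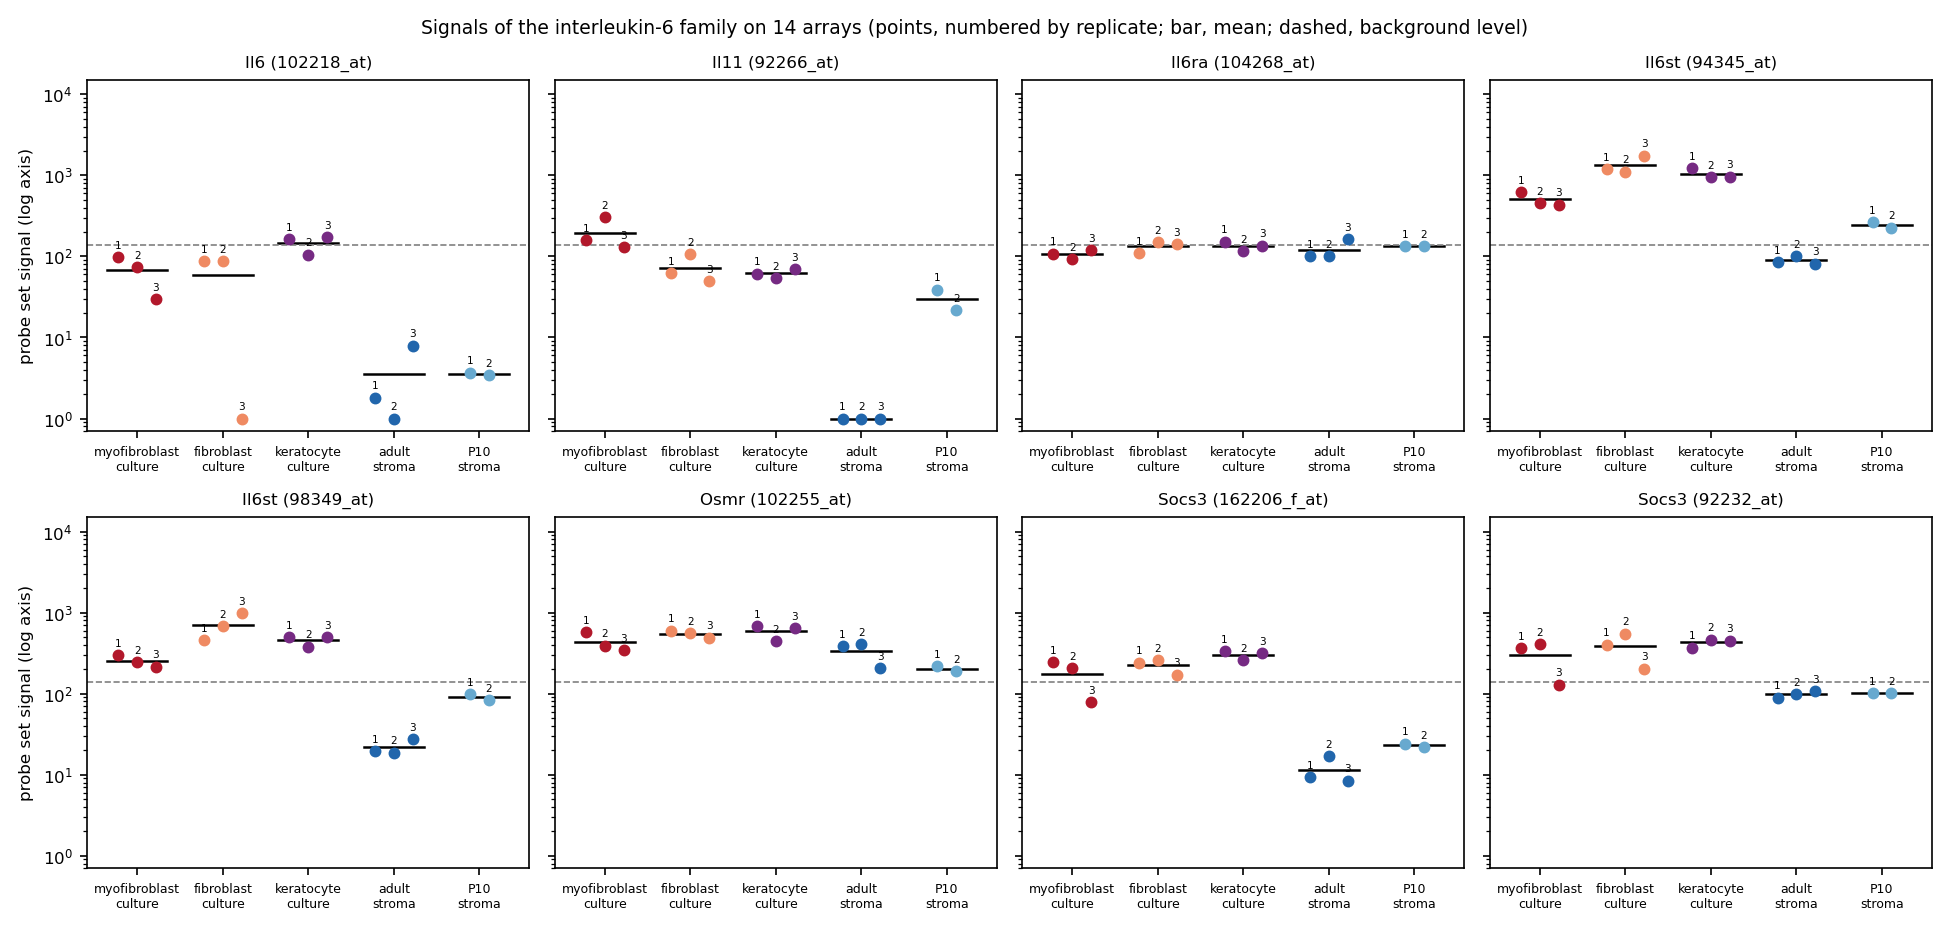
Signal of each of the 8 probe sets (log axis) on the 14 arrays, with points numbered by replicate, bars at group means and the background level of 137.7 dashed. Il6st and Socs3 points lie higher in the cultures than in adult stroma, Il11 crosses the dashed line only in myofibroblast cultures, and Il6ra stays near the line in all 5 groups.

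Il6 encodes interleukin-6, the founding cytokine of the family. Its signal was 98.4, 73.2 and 29.8 in myofibroblast cultures, 86.5, 87.0 and 1 in fibroblast cultures, 164, 105 and 174 in keratocyte cultures, 1.80, 1 and 7.95 in adult stroma, and 3.69 and 3.45 in P10 stroma. A value of 1 is the floor of the table. Of the 14 arrays 2, both of keratocyte cultures, were above the background level, and all 3 keratocyte arrays were above every stroma array. The keratocyte mean of 148 ± 37.2 was at least 1.05-fold above adult stroma, counted from the background level (limma adjusted p = 0.000688). Myofibroblast and fibroblast means of 67.1 ± 34.7 and 58.2 ± 49.5 also passed the test against the adult mean of 3.58 ± 3.80 (SD, n = 3 each; limma adjusted p = 0.0120 and 0.0468), but every value was within background and fibroblast replicate 3 overlapped the adult arrays. The fibroblast call was lost in 12 of 14 fits that each left out 1 array, all but those without fibroblast replicate 3 and myofibroblast replicate 3 (adjusted p up to 0.192), and the myofibroblast call without myofibroblast replicate 1 (adjusted p = 0.0553). No difference in Il6 between 2 kinds of culture passed the threshold, although all 3 fibroblast and all 3 myofibroblast arrays were lower than all 3 keratocyte arrays (limma adjusted p = 0.351 and 0.314).

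Il11 encodes interleukin-11, which signals through its own receptor and gp130. It had a signal of 157, 303 and 130 in myofibroblast cultures, 62.4, 107 and 49.7 in fibroblast cultures, and 61.3, 54.0 and 69.5 in keratocyte cultures. In adult stroma each of the 3 arrays held the floor value of 1, and P10 stroma had 38.7 and 21.5. Every myofibroblast array was above every other array, and 2 of the 3 were above background. The myofibroblast mean of 197 ± 92.8 was at least 1.33-fold above both the keratocyte mean of 61.6 ± 7.77 and the adult floor, counted from the background level (SD, n = 3 each; limma adjusted p = 0.0105 and 3.35e-07). The fit pools the spread of all groups. On its log2 scale the SD was 0 in adult stroma, at the floor, and 0.59 in myofibroblast cultures. These p-values may thus understate the spread of myofibroblast cultures. Against fibroblast cultures, with a mean of 72.9 ± 29.9, the difference did not pass the threshold in the fit without pairing (limma adjusted p = 0.0639). The labels state no pairing, but same-numbered arrays of these cultures deviated together over all probe sets. With the replicate number as a block, used for that reason, in a fit of these 2 groups alone with fewer degrees of freedom, the difference passed (adjusted p = 0.0141). It also passed without fibroblast replicate 2 (adjusted p = 0.0228). Keratocyte and fibroblast cultures passed the test against adult stroma (adjusted p = 4.66e-05 and 2.45e-05), and adult stroma was lower than P10 stroma (adjusted p = 0.0262), but in these comparisons both groups were within background and no fold is given. The last call was lost without adult replicate 1 (adjusted p = 0.0754), without P10 replicate 1 (0.298) and without P10 replicate 2 (0.0777).

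Il6ra encodes the receptor subunit that binds interleukin-6 itself. Its signal was 108, 92.7 and 120 in myofibroblast cultures, 109, 149 and 142 in fibroblast cultures, 151, 116 and 136 in keratocyte cultures, 101, 101 and 162 in adult stroma, and 133.0 and 132.6 in P10 stroma. The groups overlapped, except that both P10 arrays were above all 3 myofibroblast arrays, and 4 of the 14 arrays but no group mean were above background. It passed limma's test in 0 of the 7 comparisons, and in 0 of them at an unadjusted p below 0.05. This does not show that the groups were alike.

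Il6st, the gene of the shared subunit gp130, had 2 probe sets. On the brighter the signal was 623, 457 and 435 in myofibroblast cultures, 1186, 1114 and 1755 in fibroblast cultures, and 1234, 941 and 964 in keratocyte cultures. The stroma arrays read 84.7, 101 and 81.4 in the adult, and 264 and 227 at P10. The order of the group means was fibroblast, keratocyte, myofibroblast, P10 and adult, and only fibroblast and keratocyte arrays overlapped. Adult stroma was within background. Counted from the background level, the mean was at least 3.62-fold higher in myofibroblast cultures, 9.61-fold in fibroblast cultures and 7.54-fold in keratocyte cultures (limma adjusted p = 7.74e-07, 6.06e-09 and 1.90e-08). These 3 calls held in every fit that left out 1 array.

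Adult stroma had a lower Il6st signal than P10 stroma, with means of 89.0 ± 10.5 (SD, n = 3) and 245 ± 25.8 (SD, n = 2), and P10 was at least 1.78-fold higher from the background level (limma adjusted p = 0.00438). Without P10 replicate 1 this call was lost (adjusted p = 0.0792). The dimmer probe set read 19.7, 18.8 and 27.7 in the adult and 97.7 and 83.6 at P10, all within background. Markers of other cell types moved with this comparison. Of 4 pigment cell markers 3 were lower in adult stroma, and their summed signal was 612, 735 and 749.8 in adult stroma, against 1631 and 4954 in P10 stroma. Dct, an enzyme of melanin synthesis, averaged 479.5 ± 33.6 in adult stroma and 1402 ± 727 in P10 stroma (limma adjusted p = 0.0105). Of 5 lens markers 1, the crystallin Crygd, was lower in adult stroma (limma adjusted p = 0.00247), and 4 did not pass. Crygd averaged 1626 ± 535 in myofibroblast, 1237 ± 547 in fibroblast and 754 ± 89.9 in keratocyte cultures, so its signal was not confined to tissue. As well, 1 of 12 corneal epithelium markers (Krt14, adjusted p = 0.0398) and 4 of 7 myofibroblast markers were lower in adult stroma, and 1 myofibroblast marker, Cnn1, was higher. Of all probe sets 3.26% were lower and 0.453% higher in adult stroma. The part of these cells in the Il6st difference was not tested. Whether P10 stroma holds more cells that express Il6st or more of its RNA in each cell cannot be told apart in RNA from whole tissue or whole cultures.

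Among the cultures, Il6st was lower in myofibroblast cultures, with a mean of 505 ± 103, than in fibroblast cultures, with 1352 ± 351 (SD, n = 3 each). The log2 difference was -1.38 with a standard error of 0.20 (limma adjusted p = 0.00328), and all 3 myofibroblast arrays were below all 3 fibroblast arrays. In a fit of these 2 groups alone the adjusted p was 0.172, and with the replicate block added to that fit it was 0.0413. The dimmer probe set gave 297, 246 and 215 in myofibroblast cultures, against 460, 680 and 981 in fibroblast cultures, a log2 difference of -1.37 (adjusted p = 0.00923, against 0.0754 with the block, 0.254 with these 2 groups alone and 0.0581 without myofibroblast replicate 3). Against keratocyte cultures, with 1046 ± 163 on the brighter probe set, the myofibroblast mean was lower by a log2 difference of -1.03 (SE 0.20, limma adjusted p = 0.00687). On the dimmer probe set that difference was -0.82 (adjusted p = 0.0577) and did not pass the threshold, with 496, 381 and 494 in keratocyte cultures. Fibroblast and keratocyte cultures differed by a log2 difference of 0.35, with a 95% interval of -0.09 to 0.78 (limma adjusted p = 0.71), on the brighter probe set. On the dimmer the difference was 0.56 with an interval of 0.06 to 1.06, which leaves out 0, and it did not pass after adjustment over all probe sets (adjusted p = 0.496).

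Osmr encodes the oncostatin M receptor, which pairs with gp130. It had a signal of 572, 392 and 346 in myofibroblast cultures, 596, 556 and 490 in fibroblast cultures, 684, 442 and 637 in keratocyte cultures, 382, 410 and 205 in adult stroma, and 217 and 188 in P10 stroma. Adult replicate 3 was the lowest of its group and lay between the P10 arrays. Keratocyte cultures, with a mean of 588 ± 129, were above the adult mean of 332 ± 112 by a log2 difference of 0.83 (SE 0.26, limma adjusted p = 0.0251), and fibroblast cultures, with 547 ± 53.9, by 0.75 (SE 0.26, adjusted p = 0.0413). The myofibroblast mean of 436 ± 119 differed from the adult mean by 0.40, with a 95% interval of -0.15 to 0.96 (limma adjusted p = 0.258). The keratocyte call was lost without adult replicate 3 (adjusted p = 0.108), keratocyte replicate 1 (0.0995) or keratocyte replicate 3 (0.0902). The fibroblast call was lost without adult replicate 3 (adjusted p = 0.175), any of fibroblast replicates 1 (0.115), 2 (0.0812) and 3 (0.0549), either P10 array (0.0538 each) or keratocyte replicate 3 (0.0536). With each array centred on its median the log2 differences were 0.65 for keratocyte and 0.68 for fibroblast cultures (adjusted p = 0.0746 and 0.0631).

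Socs3 encodes a suppressor of cytokine signalling that binds gp130 and its kinases. The probe set with the higher mean signal read 363, 406 and 129 in myofibroblast cultures, 400.3, 550.1 and 204 in fibroblast cultures, 370.1, 461 and 452 in keratocyte cultures, 89.6, 97.8 and 108 in adult stroma, and 101 on both P10 arrays. Both stroma groups were within background, and every culture array was above every stroma array. From the background level, Socs3 was at least 1.94-fold higher than adult stroma in myofibroblast cultures, 2.58-fold in fibroblast cultures and 3.09-fold in keratocyte cultures (limma adjusted p = 0.0128, 0.00259 and 0.000948). The myofibroblast call was lost without myofibroblast replicate 1 (adjusted p = 0.0588) or 2 (0.0582). The other probe set, whose name marks its probes as shared with related sequences, read 243, 207 and 78.0 in myofibroblast cultures, 240.4, 258 and 171 in fibroblast cultures, 337, 257 and 314 in keratocyte cultures, and 9.34, 16.9 and 8.41 in adult stroma. Its rises over adult stroma passed as well (limma adjusted p = 8.85e-06, 2.25e-06 and 6.41e-07). No difference in Socs3 between kinds of culture passed the threshold on either probe set.

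The members are few, and counts over them are read beside the share of all 10370 probe sets that passed the same test in the same direction. In myofibroblast cultures against adult stroma 4 of the 6 genes measured were higher (Il6, Il11, Il6st and Socs3) and 0 lower, against 17.5% higher and 15.5% lower of all probe sets. In fibroblast cultures 5 were higher, Osmr being added, and 0 lower, against 18.4% and 12.3%, and in keratocyte cultures the same 5 were higher and 0 lower, against 21.8% and 9.25%. On the log2(signal + 16) scale the median difference of the 6 genes was 1.66, 1.62 and 2.07 in these comparisons, while that of all probe sets was -0.01, 0.04 and 0.12. Adult means of 5 of the 6 genes were within background, so these medians describe the fitted values and are no measure of fold. Among these calls, Il6 in myofibroblast and fibroblast cultures and Il11 in fibroblast and keratocyte cultures rest on signals within background in both groups. Il6 and Il11 also passed the filter on low signals only through cultures, where they were high. They could then hardly be lower there than in adult stroma, so these counts and medians are no independent support for a rise of the family. The 3 comparisons share the adult arrays. In adult against P10 stroma 0 were higher and 2 lower (Il11 and Il6st), against 0.453% and 3.26% of all probe sets.

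Between cultures fewer members moved. In myofibroblast against fibroblast cultures 0 were higher and 1 lower (Il6st), against 0.289% and 0.781% of all probe sets. In myofibroblast against keratocyte cultures 1 was higher (Il11) and 1 lower (Il6st), against 1.1% and 4.88%. In fibroblast against keratocyte cultures 0 of 6 passed in either direction, against 0.193% and 1.18%. Without adjustment, at a p below 0.05, limma called 1 of the 6 there, Il6, as lower, and likewise 1 as higher in myofibroblast against fibroblast cultures, Il11. The counts of 0 in the comparisons with adult and P10 stroma were also 0 without adjustment. The plot of differences sets the 7 comparisons side by side for each probe set.

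**Figure D2:**
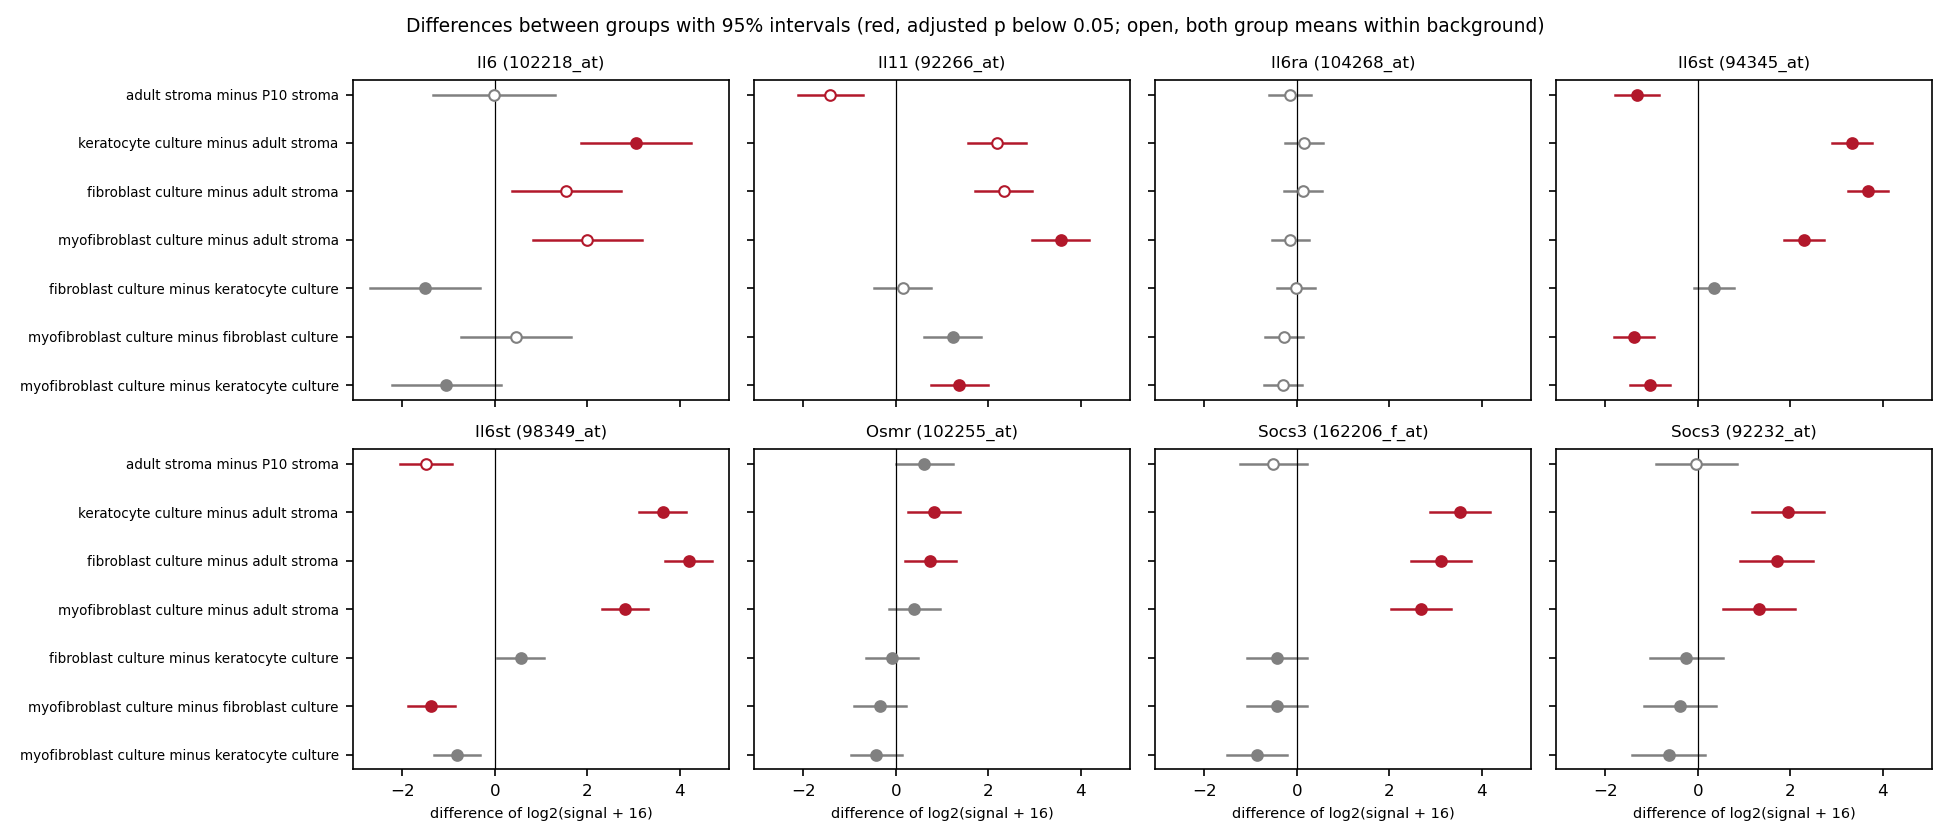
Difference of log2(signal + 16) between the groups named at the left, first minus second, for each of the 8 probe sets, with 95% intervals. Red marks an adjusted p below 0.05 and open points mark pairs of groups that both lie within background, where the size has no fold meaning; the Il6st and Socs3 differences of the 3 cultures from adult stroma are all red.

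Same-numbered myofibroblast and fibroblast cultures deviated together from their group means over all probe sets, with correlations of 0.623, 0.682 and 0.533, so they were also read as pairs. The labels state no pairing, and what same-numbered arrays share was not tested. Keratocyte cultures had same-numbered correlations of 0.197, 0.572 and 0.069 with fibroblast and 0.221, 0.409 and 0.074 with myofibroblast cultures. Replicate 3 there was below the cutoff of 0.1. Il11 was higher in the myofibroblast member of each pair. All 3 of its fibroblast values and myofibroblast replicate 3 were within background, so no size is given. Il6st on its brighter probe set was lower in each, by -0.91, -1.26 and -1.97, and on the dimmer by -0.60, -1.41 and -2.11. Osmr differed by -0.06, -0.49 and -0.48, and Socs3 on its brighter probe set by -0.14, -0.42 and -0.60, in both cases without passing the threshold with the block (limma adjusted p = 0.188 and 0.157). Replicate 3 was the lowest of its group for Il6, Il11, Osmr and both Socs3 probe sets in myofibroblast cultures and in fibroblast cultures alike. For Il6st it was the highest of the fibroblast cultures and the lowest of the myofibroblast cultures. The plot of pairs shows the slopes.

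**Figure D3:**
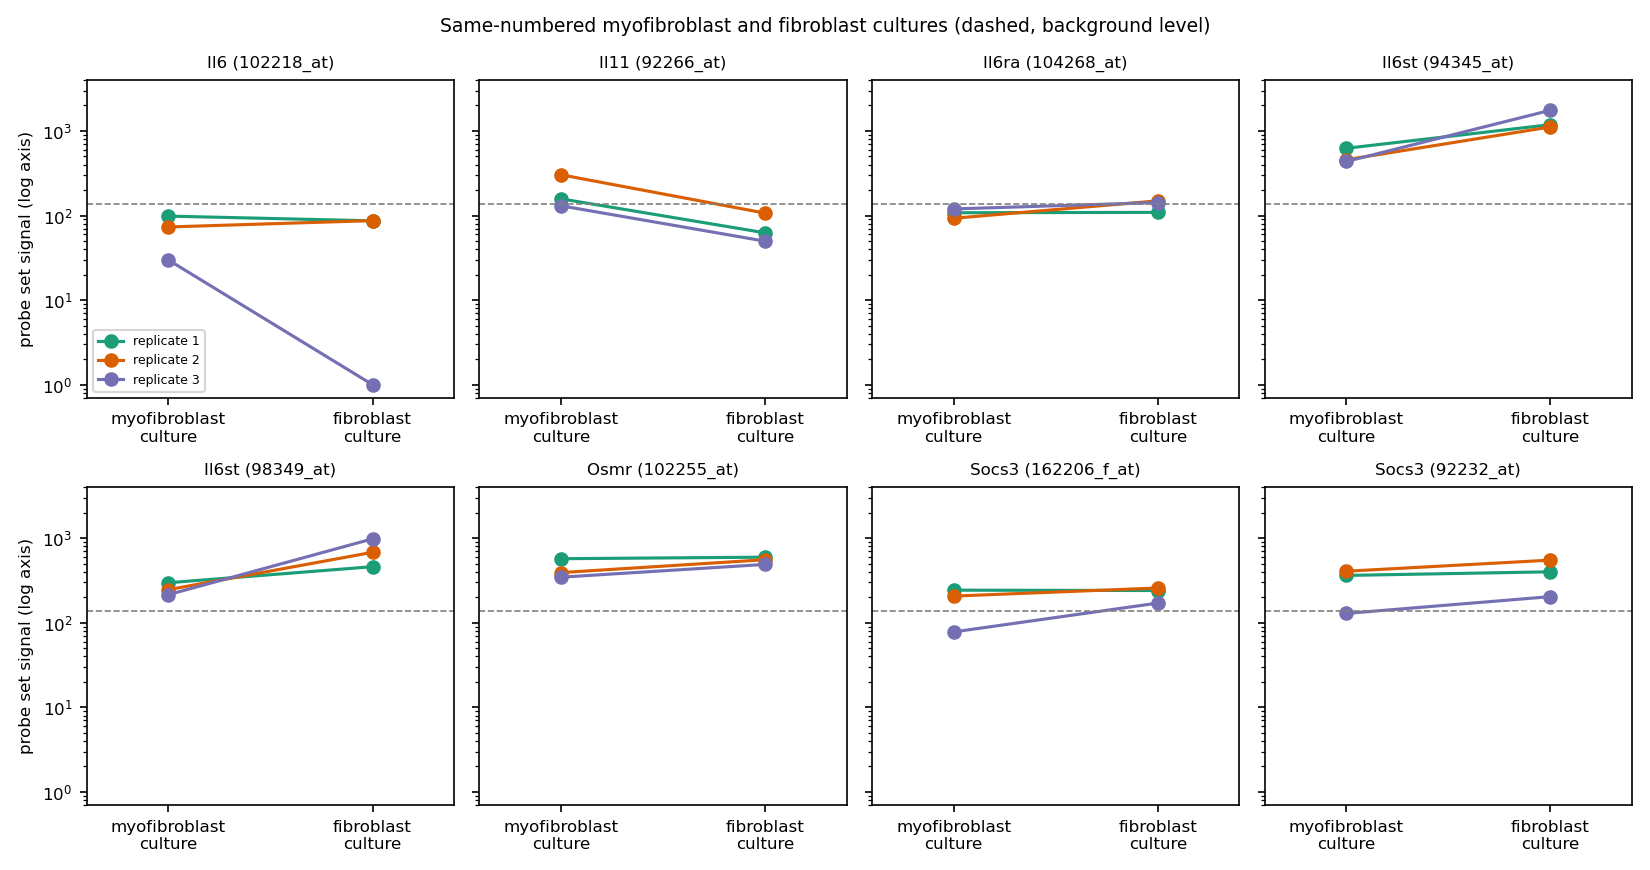
Signals (log axis) of the 8 probe sets in myofibroblast cultures (left) and fibroblast cultures (right), with lines joining the same replicate number and the background level dashed. The 3 Il11 lines run downward to the right and the 3 Il6st lines upward on both probe sets.

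Other genes of the pathway were described from lists written for this purpose. Of 7 other gp130 cytokines 2 had a probe set. Ctf1, which encodes cardiotrophin-1, read 371, 248 and 394 in myofibroblast cultures, 266, 185 and 229 in fibroblast cultures, 219.6, 229 and 262 in keratocyte cultures, 116, 116 and 217 in adult stroma, and 235 and 263 in P10 stroma. It was higher than adult stroma in myofibroblast cultures (log2 difference 1.12, limma adjusted p = 0.00208) and in keratocyte cultures (0.66, adjusted p = 0.0462). Ebi3, the partner subunit of interleukin-27, passed in no comparison. Of 3 other receptors 2 had probe sets, and Cntfr, the receptor of ciliary neurotrophic factor, was within background in every group.

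Lifr, the leukaemia inhibitory factor receptor, had 5 probe sets that disagreed. On the probe set that moved most, chosen after its values were seen, the signal was 8.92, 9.92 and 8.69 in myofibroblast cultures, 41.6, 34.7 and 53.0 in fibroblast cultures, 80.8, 47.0 and 80.6 in keratocyte cultures, 237, 236 and 181 in adult stroma, and 203 and 197 in P10 stroma. All culture arrays were within background and all stroma arrays above it, and each kind of culture fell below adult stroma (limma adjusted p = 1.64e-08, 2.44e-06 and 4.71e-05 in myofibroblast, fibroblast and keratocyte cultures). On the probe set with the highest mean signal, which represents the gene, the means were 185, 209, 215 and 244 in myofibroblast, fibroblast and keratocyte cultures and adult stroma, and no comparison passed. Which transcripts the probe sets detect was not analysed here.

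Of the 11 measured genes of Janus kinase and STAT signalling, each on its brightest probe set, 0 were higher than adult stroma in any culture. The shares of all probe sets that were higher were 17.5%, 18.4% and 21.8% in myofibroblast, fibroblast and keratocyte cultures. In that order 2, 1 and 1 were lower, beside 15.5%, 12.3% and 9.25% of all probe sets. These counts were near the shares of all probe sets, and the genes were Jak3 and Gab1. Jak3, a kinase of blood cell cytokine receptors, fell in all 3 kinds of culture, with 94.2 ± 8.74 in myofibroblast, 93.0 ± 14.1 in fibroblast and 114 ± 4.77 in keratocyte cultures, against 181 ± 35.1 in adult stroma (SD, n = 3 each; limma adjusted p = 0.00152, 0.00134 and 0.0150). Gab1, an adaptor of the phosphatase Shp2, was lower in myofibroblast cultures, at 72.3 ± 14.4 against 207 ± 75.3 in adult stroma (adjusted p = 0.0112). Its other probe set did not share this fall, with a log2 difference of 0.17 in myofibroblast cultures (adjusted p = 0.709), and was higher in fibroblast cultures at 131 ± 59.2 against 61.4 ± 27.7 in adult stroma, both means within background (adjusted p = 0.0292). Stat3, the transcription factor of the pathway, had 2 probe sets above background in every group. The brighter passed in no comparison, with 543 ± 75.4 in keratocyte cultures against 424 ± 48.0 in adult stroma (log2 difference 0.34, adjusted p = 0.176). The dimmer was higher in keratocyte cultures, at 408 ± 49.5 against 278 ± 14.5 in adult stroma (log2 difference 0.53, adjusted p = 0.0345), and did not pass in fibroblast (0.44, adjusted p = 0.0716) or myofibroblast cultures (0.32, adjusted p = 0.192).

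Of 8 feedback inhibitors other than Socs3, 0 were higher and 3 lower than adult stroma in myofibroblast cultures, 1 and 1 in fibroblast cultures, and 0 and 1 in keratocyte cultures, beside 17.5% and 15.5%, 18.4% and 12.3%, and 21.8% and 9.25% of all probe sets. Socs2 rose in fibroblast cultures, to 167 ± 70.8 against 48.0 ± 6.60 in adult stroma (limma adjusted p = 0.00195). The phosphatase gene Ptpn1 fell in myofibroblast cultures (300.4 ± 51.5 against 689 ± 269 in adult stroma, adjusted p = 0.00194) and in keratocyte cultures (adjusted p = 0.0165). Cish, an inhibitor that STAT5 induces, was lower in myofibroblast cultures at 102 ± 9.54 and in fibroblast cultures at 95.2 ± 4.48, against 149.8 ± 18.1 in adult stroma (SD, n = 3 each; limma adjusted p = 0.0183 and 0.00788). Ptpn6, the phosphatase gene of blood cells, was lower in myofibroblast cultures at 85.0 ± 14.7, against 135.2 ± 9.35 in adult stroma, with both groups within background (adjusted p = 0.0223). The median log2 difference of these inhibitors from adult stroma was -0.32 in myofibroblast, -0.21 in fibroblast and 0.02 in keratocyte cultures, beside -0.01, 0.04 and 0.12 over all probe sets. Socs1, Pias1, Pias3 and Ptpn2 were within background in all 3 cultures and in adult stroma.

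Known STAT3 target genes were listed from general knowledge, and other pathways also regulate them. Of 18 measured, 9 were higher and 3 lower in myofibroblast cultures than in adult stroma, 9 and 3 in fibroblast cultures, and 11 and 1 in keratocyte cultures, beside 17.5% and 15.5%, 18.4% and 12.3%, and 21.8% and 9.25% of all probe sets. The share that was lower in myofibroblast cultures was near that of all probe sets, and the calls of Myc and Vegfa in fibroblast cultures and of Fgl2 in keratocyte cultures rest on means within background in both groups. Their median log2 difference was 0.50, 0.69 and 0.81 in that order, beside -0.01, 0.04 and 0.12 over all probe sets. Timp1, an inhibitor of matrix metalloproteinases, had means of 5331 ± 712, 5723 ± 604 and 5074 ± 330 in the 3 cultures, against 127 ± 23.2 in adult stroma (SD, n = 3 each). Cebpd, a transcription factor of the acute phase response, had 925 ± 462, 1596 ± 394 and 1509 ± 180, against 86.2 ± 21.2 in adult stroma. Vegfa, the vascular growth factor, was above background in myofibroblast cultures at 264 ± 76.6 and narrowly so in keratocyte cultures at 138.1 ± 6.41, with 129 ± 26.9 in fibroblast cultures and 10.3 ± 7.24 in adult stroma. Ccnd1, the cyclin D1 gene, went the other way, with 237 ± 122, 435 ± 303 and 499 ± 48.5 in the cultures, against 1232 ± 131 in adult stroma (limma adjusted p = 0.000299, 0.00503 and 0.0245).

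Acute phase genes, typical outputs of the pathway in liver, were counted in the same way. Of 8 that passed the filter, 2 were higher and 1 lower in myofibroblast cultures than in adult stroma, 4 and 0 in fibroblast cultures, and 5 and 0 in keratocyte cultures, beside 17.5% and 15.5%, 18.4% and 12.3%, and 21.8% and 9.25% of all probe sets. In myofibroblast cultures these counts were near the shares of all probe sets, and Cp, the ceruloplasmin gene lower there, was within background in both groups. Saa3, serum amyloid A3, read 308, 533 and 193 in myofibroblast cultures, 1484, 1733 and 1277 in fibroblast cultures, 5266, 5053 and 5297 in keratocyte cultures, 36.4, 28.7 and 39.1 in adult stroma, and 34.9 and 18.0 in P10 stroma. The 3 kinds of culture did not overlap, and both steps passed the test, with a log2 difference of -2.17 for myofibroblast minus fibroblast (SE 0.28, limma adjusted p = 0.00123) and -1.80 for fibroblast minus keratocyte cultures (SE 0.28, adjusted p = 0.00675). Lcn2, the iron-sequestering lipocalin, was above background in keratocyte cultures alone, at 894, 753 and 1067, against 131, 112 and 84.5 in fibroblast cultures and 28.5, 72.5 and 12.6 in myofibroblast cultures. Serpina3n, a protease inhibitor, spread widely, with 229, 582 and 1 in myofibroblast cultures, 882, 1819 and 138 in fibroblast cultures and 2903, 3670 and 3531 in keratocyte cultures, and replicate 3 was the lowest of both groups in 10% serum. Hpx, the haem-binding hemopexin, ran in the other order, with means of 732 ± 333, 476 ± 192 and 386 ± 69.5 in myofibroblast, fibroblast and keratocyte cultures, against 83.6 ± 76.0 in adult stroma, but none of the 3 differences between cultures passed (limma adjusted p = 0.506 to 0.953). The other probe sets of Hpx and Lcn2 were within background in every group.

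**Figure D4:**
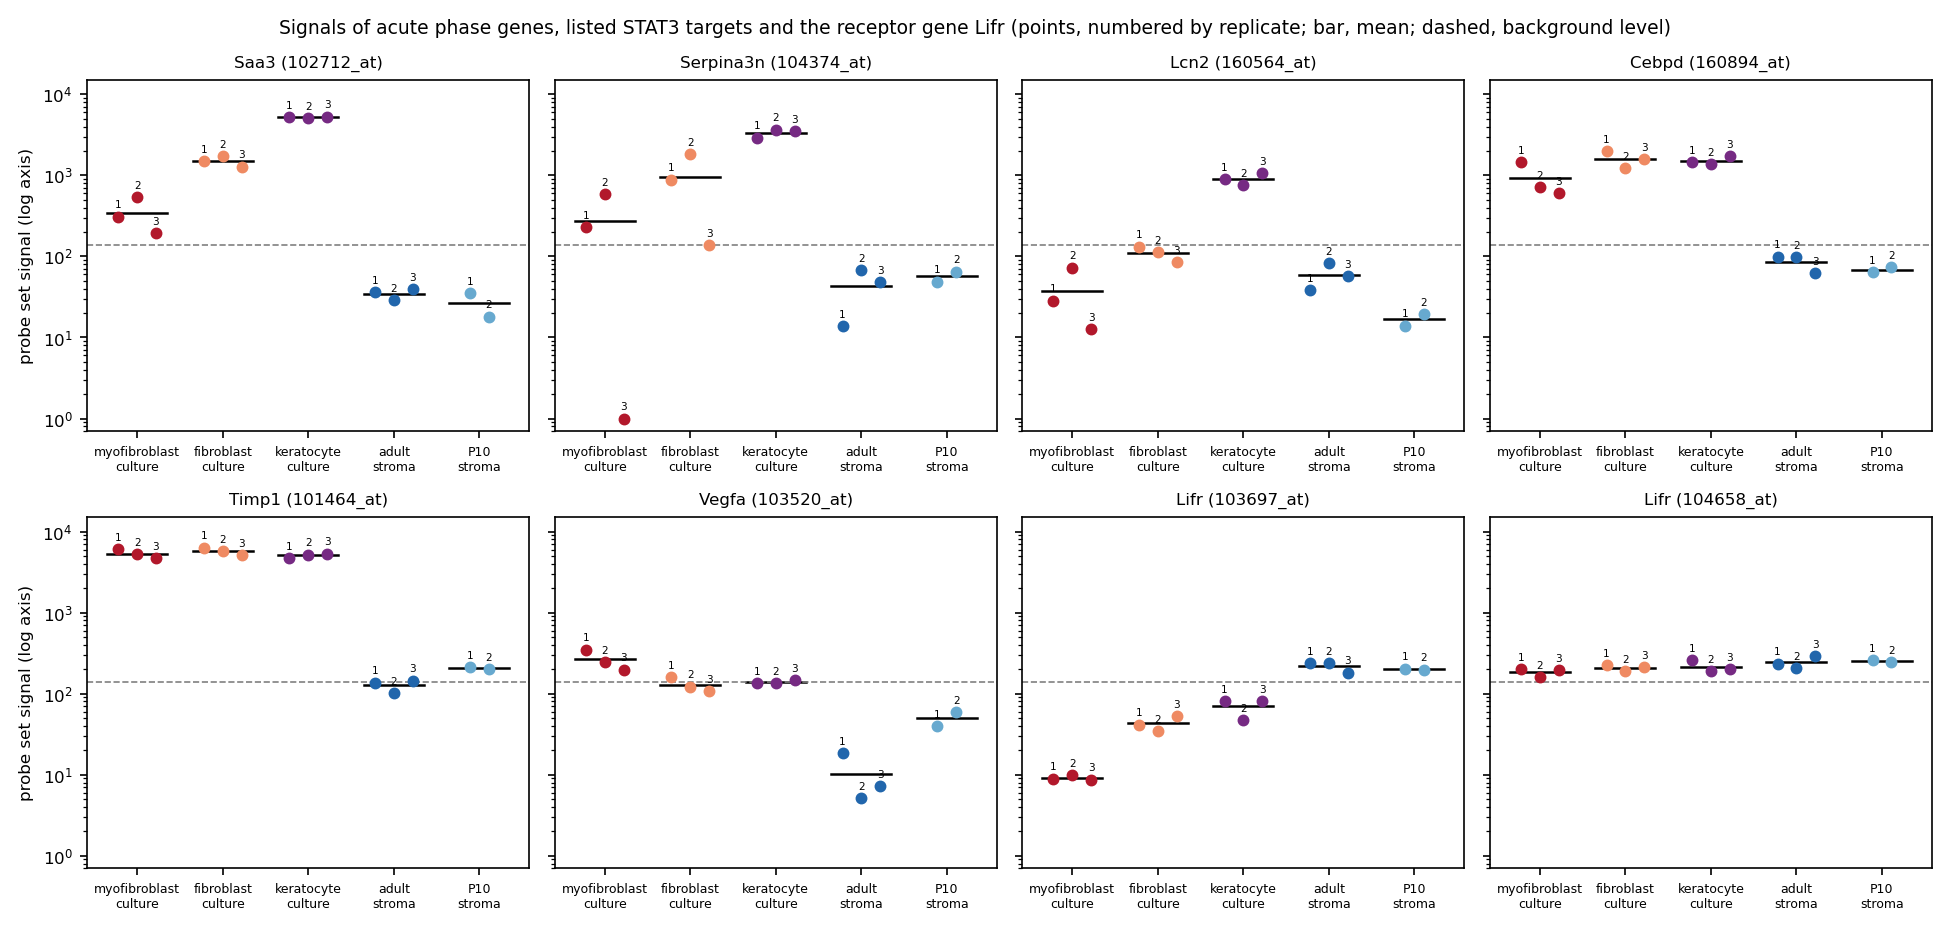
Signals (log axis) of 3 acute phase genes, 3 listed STAT3 targets and 2 probe sets of Lifr on the 14 arrays, with points numbered by replicate, bars at group means and the background level dashed. Saa3 points of the 3 kinds of culture do not overlap and are highest in keratocyte cultures, Timp1 points of the 3 kinds overlap, and the 2 Lifr probe sets differ in pattern.

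Genes of the interleukin-1 and TNF system, whose cytokines induce Il6 in many cells, were counted likewise. The list also holds receptors, inhibitors and targets, so its counts are not counts of inducers. Of 11 measured, 5 were higher and 2 lower in myofibroblast cultures than in adult stroma, 5 and 1 in fibroblast cultures, and 7 and 1 in keratocyte cultures, beside 17.5% and 15.5%, 18.4% and 12.3%, and 21.8% and 9.25% of all probe sets. Of these calls, Il1a in each kind of culture, Il1r1 in myofibroblast cultures, and Il1b and Tnfrsf1b in keratocyte cultures rest on means within background in both groups. Ptgs2, the inducible prostaglandin synthase, had means of 1328 ± 364, 628 ± 274 and 419 ± 84.2 in these cultures, against 2.21 ± 2.10 in adult stroma (SD, n = 3 each). Il1rn, the interleukin-1 receptor antagonist, had 453 ± 49.9, 423 ± 120 and 440 ± 39.7, against 44.5 ± 15.8 in adult stroma. Il1r1, the interleukin-1 receptor, was within background in myofibroblast cultures, at 130 ± 39.4, and lower there than in fibroblast cultures, at 399 ± 58.3 (limma adjusted p = 0.000762), and in keratocyte cultures, at 288 ± 13.9 (adjusted p = 0.00243).

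Markers of other cell types moved with these comparisons, and their part in the results was not tested. All 12 corneal epithelium markers that passed the filter fell in each kind of culture, and the summed signal of the 13 with a probe set was 739 to 1028 in myofibroblast, 816 to 1152 in fibroblast and 997 to 1293 in keratocyte cultures, against 23104 to 24683 in adult stroma. Of all probe sets 15.5%, 12.3% and 9.25% were lower. Epcam, 1 of the epithelium markers, was within background in these cultures and in adult stroma. Krt12, the corneal epithelial keratin, averaged 294 ± 27.4, 254 ± 29.2 and 238 ± 13.2 in these cultures, against 7148 ± 507 in adult stroma. Of 19 macrophage and leukocyte markers, 4 were higher and 4 lower than adult stroma in myofibroblast cultures, 8 and 1 in fibroblast cultures, and 8 and 0 in keratocyte cultures, beside 17.5% and 15.5%, 18.4% and 12.3%, and 21.8% and 9.25% of all probe sets. In myofibroblast cultures the shares were near those of all probe sets. Their summed signal was 2464 to 3249, 2541 to 4095 and 4300 to 5398 in the 3 cultures, against 2049 to 2598 in adult stroma. Lyz2, the lysozyme of macrophages, averaged 122 ± 100.2, 484 ± 312 and 1130 ± 262, against 4.85 ± 6.67 in adult stroma, so its order among the cultures was that of Saa3. Ptprc, the pan-leukocyte marker, was near background throughout, at 166 ± 17.8, 177 ± 25.2 and 160 ± 37.6, against 145 ± 23.8 in adult stroma on its brightest probe set. Of 7 endothelium markers 3 were higher in each kind of culture, and 1 was lower in myofibroblast cultures, beside the same shares of all probe sets. Cdh5, the cadherin that defines endothelium, was above background in keratocyte cultures alone, at 317 ± 63.6, with 5.25 ± 4.14 in myofibroblast cultures, 47.7 ± 43.0 in fibroblast cultures and 4.13 ± 5.42 in adult stroma. The other listed endothelium markers did not share this pattern. Pecam1, Kdr and Vwf were within background in keratocyte cultures and did not pass there against adult stroma. Tie1, Flt1 and Eng averaged 597 ± 282, 618 ± 182 and 1524 ± 114 in myofibroblast cultures, against 262 ± 152, 436 ± 17.3 and 1094 ± 239 in keratocyte cultures.

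Pigment cell, retina and lens markers moved too. All 4 pigment cell markers measured were higher in keratocyte cultures than in adult stroma, beside 21.8% of all probe sets. Tyr, 1 of these, was within background in the 3 cultures and in adult stroma. All 4 were lower in fibroblast and myofibroblast cultures than in keratocyte cultures, beside 1.18% and 4.88% of all probe sets. Their summed signal was 428.5 to 557 in myofibroblast, 375 to 605 in fibroblast and 1862 to 2221 in keratocyte cultures, against 612 to 749.8 in adult stroma. All 6 retina markers fell in each kind of culture, with a summed signal of 133 to 169.6, 112 to 162 and 131 to 149.8, against 841 to 3729 in adult stroma. The retina markers Rcvrn and Prph2 were within background in the cultures and in adult stroma. Of 5 lens markers 1, Crygd, was higher in each kind of culture, and 3 were lower in myofibroblast, 3 in fibroblast and 2 in keratocyte cultures. Of all probe sets 17.5%, 18.4% and 21.8% were higher and 15.5%, 12.3% and 9.25% lower in myofibroblast, fibroblast and keratocyte cultures.

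The genes with profiles over the 14 arrays most like a member were sought among 7436 other genes. The measure was the root mean square difference of log2(signal + 16) profiles, each centred on its mean. Il6ra, with no group mean above background, was left out. Closest to Il6 were Errfi1 at 0.40, Egr1 at 0.54 and Hmga2 at 0.57. Closest to Il11 were Vegfa at 0.45, Fbln2 at 0.50 and Bgn at 0.51. Fbln2, a matrix glycoprotein, had means of 2671 in myofibroblast, 1184 in fibroblast and 1157 in keratocyte cultures, against 114 in adult stroma. Closest to Il6st were Id3 at 0.36, Sgce at 0.40 and Pros1 at 0.41, and Id3, an inhibitor of transcription factor binding, had means of 562, 1075 and 892 in these cultures against 121 in adult stroma. Closest to Osmr were Aldoart2 at 0.23, Atp5md at 0.24 and Cct6a at 0.25, and to Socs3 Rhoc at 0.30, Ptgis at 0.37 and Ltbp2 at 0.38. Aldoart2 was within background in every group mean. The members' own root mean square spread was 1.33 for Il6, 1.25 for Il11, 1.39 for Il6st, 0.57 for Osmr and 0.92 for Socs3. All of these profiles share the same arrays and groups.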

How the data were processed

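Deposited values were probe set signals, an intensity on a linear scale; per the labels, the authors computed them with Microarray Suite 5.0, scaled to a target of 150, from 5 µg of total RNA. Detection calls were not used here, and the scaling as deposited is not settled. From 12488 rows 66 control probe sets were left out, and 10370 with a mean signal of 50 or more in at least 1 of 5 groups were kept. A gene kept only through its high groups could hardly be called lower there, which bears on the counts of members and lists. Symbols came from the platform annotation, and a gene was represented by its brightest probe set. The test was limma 3.58.1 (R 4.3.3) on log2(signal + 16), with 1 mean per group over the 14 arrays, 9 residual degrees of freedom and a variance trend, two-sided, with Benjamini-Hochberg adjustment over the 10370 probe sets and a threshold of 0.05. The fit was tested on simulated data with noise drawn independently for each array, unlike same-numbered cultures here. It recovered 47 to 71% of log2 changes of 1 and 93 to 98% of changes of 2, so a difference near 1 can go uncalled. Means and SDs are of signals. A fold against a group within background is counted from the background level, on each array of that group the higher of 137.7 and its own signal. Such a fold is a ratio of geometric means, so it can differ from a ratio of the printed means. The number of arrays limits the precision. Replicate numbers were taken to pair arrays where every same-numbered pair of 3 or more deviated together by a correlation over 0.1, which held for myofibroblast and fibroblast cultures alone. Members, lists, comparisons and the rule for named genes (all members, and up to 4 called genes of a list by size) were chosen with earlier results of these data known. Alternatives were other added constants, filters and normalizations, fits of 2 groups, the block, no trend, the median over probe sets, and leaving out each array. The block was fitted to the 2 groups compared alone, not to the 14 arrays.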

Additional observations from a re-analysis of the deposited data

How the results depend on the processing

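The count of members past the threshold in adult against P10 stroma was 2, and 1 with 64 added, with quantile normalization, with centring on the array median and with the replicate block; leaving out 1 array gave 0 to 2. In fibroblast cultures against adult stroma it was 5, and 3 with centring, with only the 2 groups fitted and with the replicate block. Leaving out 1 array gave 3 to 5. Over the 10 alternatives that kept every array, Il6 lost this call in 5 and Osmr in 3. In keratocyte cultures against adult stroma Osmr lost its call in 3 of the 10 and in 3 of 14 fits that left out 1 array. In myofibroblast cultures against adult stroma leaving out 1 array gave 2 to 4, the 2 without myofibroblast replicate 1. In myofibroblast against fibroblast cultures the count was 1, 0 with only the 2 groups fitted and 2 with the replicate block; leaving out 1 array gave 1 to 2, the 2 without fibroblast replicate 2. Only these cultures were read as pairs, and there the block also raised the count over all probe sets to 210, against 111 without it. The uncalled Osmr difference of -0.08 between fibroblast and keratocyte cultures turned to 0.034 with quantile normalization and 0.029 with centring, and ran from -0.27 to 0.039 when 1 array was left out, turning without keratocyte replicate 1. That of Socs3 ran from -0.55 to 0.14, turning without fibroblast replicate 3, and the Socs3 difference of myofibroblast and fibroblast cultures from -0.77 to 0.10, turning without myofibroblast replicate 3. Fitting fewer arrays leaves fewer degrees of freedom; the cause of the other changes was not tested. Signals near background limit Il6, Il6ra and Il11, and stroma values of Il6st and Socs3 give only bounds.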
